A study of Homo sapiens with 2 samples.

Results

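The T-cell receptor alpha and delta genes lie nested in a single stretch of 14q11.2, and the H3K27ac peaks over that stretch in LOUCY are described here. The mark, acetylation of histone H3 at lysine 27, is found at active promoters and enhancers. Members were all deposited peaks that overlap 22.050 to 23.100 Mb of chromosome 14 in hg19, a window of 1.05 Mb, by at least 1 bp. There were 56 such peaks, of 1804 on chromosome 14 and 52203 in the whole list. The window was split by position, using no measured value, into 5 segments. These were the V segments (22.090 to 22.890 Mb), the delta D-J-C part with TRDC (22.890 to 22.945 Mb), the J alpha part (22.945 to 23.012 Mb), TRAC with the alpha enhancer (23.012 to 23.032 Mb) and DAD1 (23.033 to 23.058 Mb).

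LOUCY, an established line from a T-ALL (an acute leukaemia of T-cell precursors), is used as a model of the immature form of that disease, and it gave 1 library of H3K27ac ChIP DNA and 1 of sheared input DNA. The labels name no treatment of the cells and no clone or passage, and with 1 library of each kind the values have no replicate check. No difference between parts of the list was tested, since peaks are not replicates. The peak caller kept 54357332 of 62626946 ChIP tags and 71932640 of 74212738 input tags. Reads of both alleles are summed in every value. The lineage of the line was not checked against other T-cell, B-cell or myeloid marker genes, because no hg19 gene annotation was used here.

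A T-cell receptor is a pair of chains, either alpha with beta or gamma with delta. Each chain gene is put together in the thymus by V(D)J recombination, in which the RAG recombinase joins a V segment to a J segment, for delta by way of D segments, and the DNA between the joined segments is usually cut out of that allele. The delta D, J and C segments lie between the V segments and the J alpha segments, so that a V-to-J alpha joint removes them. An enhancer of delta lies close to TRDC, the delta constant region, and an enhancer of alpha lies between TRAC, the alpha constant region, and DAD1. DAD1 codes for a subunit of the oligosaccharyltransferase that attaches sugars to new proteins in the endoplasmic reticulum, and it is used by most cell types. LOUCY has been described as a line with a gamma-delta receptor.

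In the RefSeq gene table (GRCh38.p14, used for names and order only) all 3 named genes were found. The table listed 54 TRAV entries, of which 5 carry a joint TRAV and TRDV name, and 3 TRDV, 3 TRDD, 4 TRDJ and 61 TRAJ entries. TRDV1 stands among the TRAV entries. TRDV2, the D and J delta segments and TRDC follow the last TRAV entries in that order, then TRDV3, TRAJ61 and the rest of the J alpha segments down to TRAJ1 and TRAC. DAD1 is the next protein-coding gene, on the minus strand, and ABHD4 comes after it. A promoter sequence was at hand for DAD1. Its 250 bases before the start site are shown because the one narrow peak of higher fold in the DAD1 part crosses the right border of that part, the side on which this minus-strand gene begins. The sequence is from RefSeq, GRCh38.p14, chr14:22589225-22589474, minus strand, and those positions are not to be set against the hg19 positions of the peaks. Capitals mark the spaced RFX motif and the NRF1 motif.
DAD1 promoter: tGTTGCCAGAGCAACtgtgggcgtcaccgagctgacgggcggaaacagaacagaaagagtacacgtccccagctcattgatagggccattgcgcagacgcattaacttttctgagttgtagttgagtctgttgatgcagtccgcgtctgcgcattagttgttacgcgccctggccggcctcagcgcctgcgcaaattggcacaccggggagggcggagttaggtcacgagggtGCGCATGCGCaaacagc

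The marked letters are uncommon among promoters. GCGCATGCGC, the motif of NRF1, a factor of housekeeping promoters, began 17 bases before the start site and was present in 1.03% of 35116 promoter windows of the same length. The spaced motif GTTGCCNNNNCAAC of RFX factors began 249 bases before the start and were present in 0.199% of the windows. The GC box GGGCGG matched at 2 places (42.6% of windows), and CCAAT at 1 (32.0%). TATAAA (10.7% of windows), the ETS letters CCGGAAG (8.52%) and the RUNX letters TGTGGT (11.0%) had no match. Both strands were searched, the motifs did not overlap one another in this window, and the set of motifs was chosen after the sequence had been seen. The window held 58.0% G and C, which is the median of all promoters, and 20 CpG pairs against a median of 11. Fewer than 20 pairs were found in 67.6% of promoters. A match is a run of letters and not a bound site.

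The locus was dense in peaks, and 2 of them held most of the mark. There were 53.3 peaks per Mb in the window against 17.2 in the genome, and they covered 18.4% of the window against 4.90% of the genome. The 56 peaks covered 193585 bp, against a median of 18 peaks and of 43802 bp in other windows of the same length that held a peak. Windows were laid end to end over the genome, and those without a peak were left out. Among the 2486 windows kept, the locus ranked 26 by the sum of fold enrichment over covered bases, 70 by covered bases and 71 by number of peaks. Fold enrichment is the authors' own value for each peak, the ChIP signal divided by that of the control nearby. Single peaks were not strong as a rule. Their median fold was 2.71, against 3.08 for all peaks, and their median width 1281 bp, against 1670 bp.

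A fold of 10 or more was reached by 2 of the 56 peaks, 3.57%, where 5.21% of all peaks reached it. A width of 10000 bp or more was found for 3 peaks, 5.36%, where 4.37% of all peaks had it. A fold of 6 or more was reached by 10 peaks, 17.9%, where 23.2% of all peaks did, and 31 peaks, 55.4%, had a fold below 3, where 48.2% of all peaks did. The 95% Wilson intervals of the shares of the locus by fold, which cover counting error only, were 0.985% to 12.1%, 10.0% to 29.8% and 42.4% to 67.6%. They take neighbouring peaks of 1 library as independent draws, which these peaks are not, so they test no difference from the list. A -log10 q below 2, close to the limit of calling, was found for 20 of the 56 peaks, 35.7% (24.5% to 48.8%), where 22.8% of all peaks had it.

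**Figure D1:**
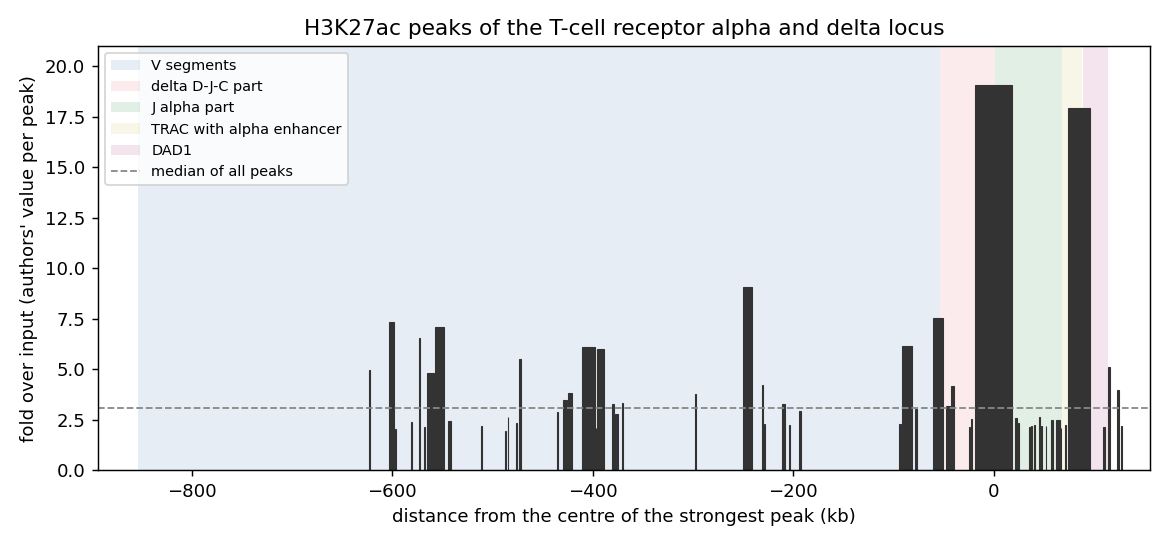
Fold over input of the 56 peaks (bar height; bar width is the peak's width) against distance in kb from the centre of the strongest peak, with the 5 segments shaded and the median of all peaks (3.08) dashed. The 2 highest bars, at folds of 19.0 and 17.9, stand at the right end, the V segments hold lower bars in separate groups, and the left end of the V segments is empty.

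The strongest peak began in the delta D-J-C part and ended in the J alpha part. It ran from 22925355 to 22961580, 36226 bp, with a fold of 19.0 and a -log10 q of 196. Among the peaks of chromosome 14 it ranked 1 by fold and 4 by width. Among all 52203 peaks it was 17 by fold, 75 by width, 4 by -log10 p and 5 by fold times width. The delta D-J-C part held 19646 bp of it, 35.7% of that part, and the J alpha part held 16580 bp, 24.7% of that part. In RefSeq order TRDC and TRDV3 come last in the delta part, and TRAJ61 comes first in the J alpha part, so the peak crosses from one to the other. As background, a promoter of unrearranged transcription, known as TEA, lies at that upstream end of the J alpha segments. The position of TRDC, of the delta enhancer or of TEA inside the peak was not read, since these segments are given here by their borders only.

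The second strongest peak joined TRAC and the alpha enhancer to the near end of DAD1. It ran from 23017361 to 23039866, 22506 bp, with a fold of 17.9 and a -log10 q of 160. Its ranks were 2 by fold on chromosome 14, 35 by fold among all peaks, 369 by width and 62 by fold times width. It covered 14640 bp of the segment of TRAC with the alpha enhancer, 73.2% of it, and 6866 bp or 27.5% of the DAD1 part. Since DAD1 is on the minus strand, the covered end is the end of the gene away from its start site.

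Both peaks were wide as well as strong, which few peaks were. Of all peaks, 35 had a fold at least as high as the lesser of the 2 and 369 were at least as wide, and 5 met both limits, the 2 described included. The gap between them was 55780 bp. They were the only pair (1 in the list) of peaks of that fold with a gap no longer than this. Both limits were taken from the pair itself, so that it meets them is no result. Together they were 58732 bp wide, 30.3% of the covered bases of the window, and held 61.9% of its sum of fold over covered bases. The highest fold among the other 54 peaks was 9.05. The order of the 2 strongest rests on a difference of fold that no replicate measures.

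**Figure D2:**
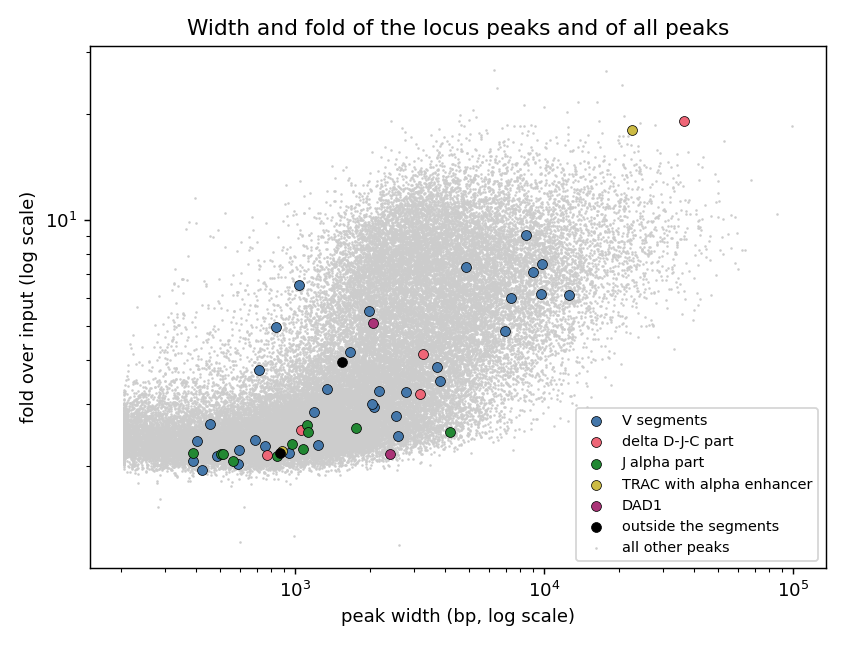
Fold over input against peak width, both on log scales, for the locus peaks coloured by the first segment they touch, and for all other peaks in grey. The 2 strongest locus peaks (36226 bp at 19.0 and 22506 bp at 17.9) lie at the upper right edge of the cloud, and the J alpha peaks other than the strongest lie at its lower edge.

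Between the 2 strong peaks the J alpha part carried many weak, narrow peaks. Besides the strongest peak, 11 peaks lay in it, from 22964657 to 23011130, and all 11 had a fold between 2.08 and 2.63 (median 2.25). Their widths were 388 to 4164 bp (median 965 bp), and their -log10 q values from 1.14 to 2.79. The highest of them was at 22988291 to 22989407 with a fold of 2.63, and the widest, at 23005456 to 23009619, had a fold of 2.50. These values lay near the caller's limit, as the lowest -log10 q of the whole list was 1.01. A -log10 q below 2 was found for 7 of the 12 peaks of the J alpha part, again against 22.8% of all peaks. The part had 179 peaks per Mb and 44.1% of its bases covered. Raising the limit to a -log10 q of 5 left 1 of the 12 peaks, the strongest, and a covered share of 24.7%.

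The delta D-J-C part held 5 peaks besides the strongest. The one at its left border, 22883068 to 22892833, crossed from the V segments with 6933 bp in them and 2833 bp in the delta part, and had a fold of 7.51. To its right came peaks at 22896476 to 22899648 (fold 3.20) and 22900624 to 22903863 (fold 4.17). The last 2 before the strongest peak were near the limit of calling, at 22919286 to 22920055 with a fold of 2.15 and at 22921139 to 22922195 with a fold of 2.53. The first of this pair had a -log10 q of 1.01, rank 25 from the lowest of all 52203 peaks. Peaks covered 55.9% of the part.

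TRAC with the alpha enhancer had the highest covered share of the 5 segments, 77.6%. Apart from the wide peak it held 1 peak, at 23015140 to 23016023, with a fold of 2.21. The uncovered bases numbered 4476 of its 20 kb. The mean fold over covered bases was 17.0 here, 13.8 in the delta D-J-C part, 13.1 in DAD1, 11.7 in the J alpha part and 5.49 in the V segments. Those means use 1 fold per peak, so a peak that crosses a border brings the same fold to both sides.

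DAD1 carried the mark at both ends and little between them. The wide peak from the TRAC side ended at 23039866. The next peak, at 23052245 to 23054653, had a fold of 2.16, and the 12378 bp between these had no peak. A peak of 2043 bp at 23057182 to 23059224, fold 5.10 and -log10 q 21.3, lay across the right border of the part, where the gene starts. Its fold ranked 15094 among all peaks and 511 on chromosome 14. The fold of 17.9 of the wide peak is 1 value over all its 22506 bp, most of which lie left of DAD1, so the fold of that end of DAD1 alone is not known. Right of the part, 2 further peaks lay at 23066869 to 23068400 (fold 3.95) and 23070628 to 23071495 (fold 2.18). ABHD4 follows DAD1 in RefSeq order, and these peaks were not placed in it.

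**Figure D3:**
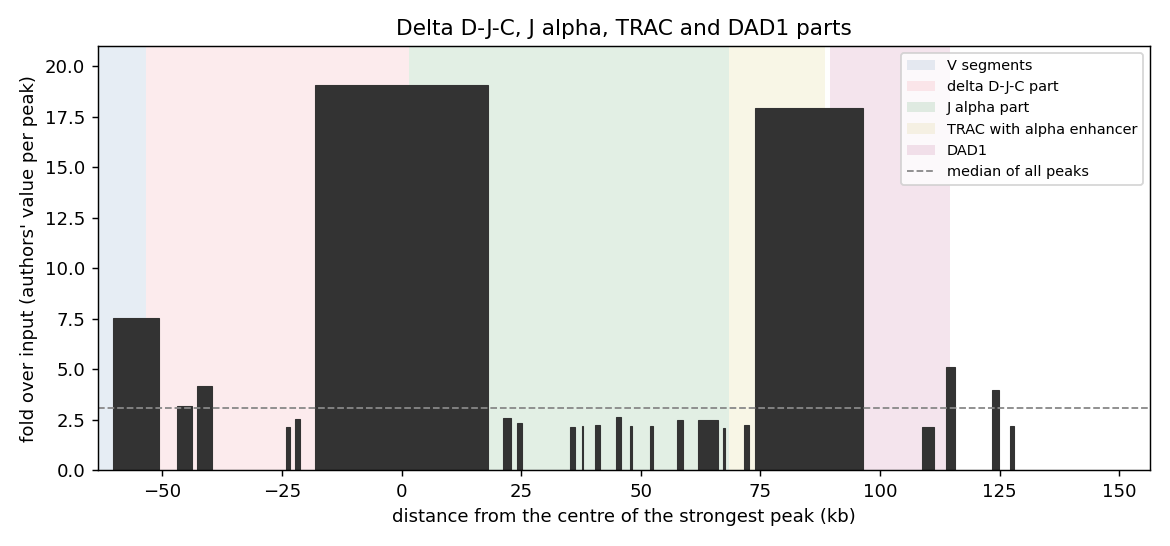
The same plot for the right end of the window, with fold over input against distance in kb from the centre of the strongest peak. The 2 wide peaks (19.0 and 17.9) each cross a segment border, the 11 other J alpha peaks lie between 2.08 and 2.63, and the peak at the right border of DAD1 reaches 5.10.

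The V segments, which make up 76.2% of the window, held 34 peaks. These covered 103048 bp, 12.9% of the part, and supplied 53.2% of the covered bases of the window but 32.0% of its sum of fold over covered bases. No V peak reached a fold of 10. A fold of at least 6 was found for 8 of the 34, 23.5%, where 23.2% of all peaks had one. The highest was at 22694007 to 22702457 with a fold of 9.05 over 8451 bp, rank 4195 of all peaks and 142 of chromosome 14. Next came the peak at the delta border (7.51) and peaks at 22340224 to 22345079 (7.33) and 22386238 to 22395230 (7.10).

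The other 4 peaks of that class had folds between 6.00 and 6.54. They lay at 22370601 to 22371631 (6.54), 22852152 to 22861816 (6.14), 22533129 to 22545692 (6.11) and 22548029 to 22555346 (6.00). The peak at 22533129, 12564 bp wide, was the widest of the V segments. The remaining 26 V peaks had folds of 1.95 to 5.52 (median 2.82) and were 1206 bp wide at the median. Which V gene each peak belongs to was not read, and the olfactory receptor genes OR10G2, OR4E2 and OR4E1, which RefSeq lists among the TRAV entries, were likewise not placed.

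The V peaks came in groups with empty stretches between them. From the left border of the V segments to the first peak at 22320441, 230.44 kb had no peak. Counted from the nearest peak outside the window the gap was 294.562 kb, and 2.97% of the 52180 gaps between neighbouring peaks of the genome were longer. Inside the locus the longest gap was 98249 bp, from 22751341 to 22849589, followed by 71427 bp from 22574219 to 22645645. The median gap in the locus was 3789 bp against 11793.5 bp in the genome. The first 20 peaks lay within 234.906 kb, and 25.6% of that stretch was covered.

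**Figure D4:**
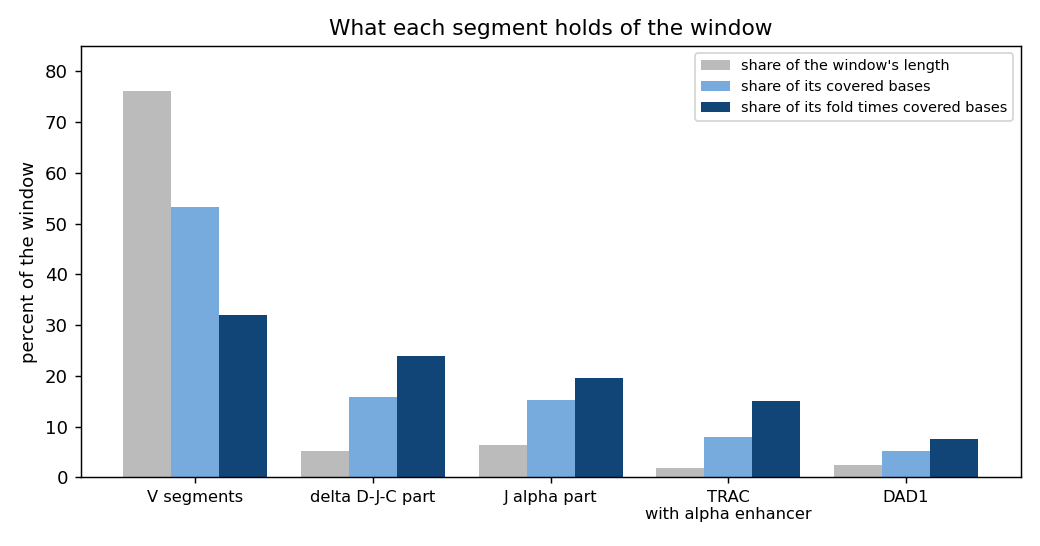
Share of the window's length, of its covered bases and of its fold summed over covered bases that each segment holds, in percent. The V segments hold 76.2% of the length, 53.2% of the covered bases and 32.0% of the summed fold, while TRAC with the alpha enhancer holds 1.90%, 8.02% and 15.0%.

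When peaks less than 12500 bp apart were joined, the window broke into 12 regions. The one with the strongest peak ran from 22919286 to 23071495 (152 kb, 20 peaks, 53.4% covered), and thus took in the right part of the delta segment, all of J alpha, TRAC and DAD1. It held 65.4% of the window's fold summed over bases and ranked 10 among 25510 regions of the genome by that sum, 56 by span and 42 by number of peaks. The weak J alpha peaks are what joins its 2 strong ends. The 4 peaks right of the second strongest peak joined across a gap of 12378 bp, just under the joining distance. With peaks of a -log10 q of at least 10 alone, the region was the strongest peak by itself, 36.2 kb, and ranked 19. With a joining distance of 5 kb it ended at 22968624 and ranked 27. The other 11 regions of the window ranked from 1046 to 21660, the first of them at 22508190 to 22574218 with 9 peaks.

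The level of the input library at each peak can be worked out from the deposited fold and p-value together. It is the local control pileup, in fragments per position on the caller's scale, at which the fold has its Poisson p. It was solved with 1 added to pileup and control in the fold, as the caller does. It is approximate for broad peaks, and the lowest value in the list, 4.11, equalled the floor that the caller's genome background sets. Over the 56 peaks its median was 6.11, against 6.45 on chromosome 14 and 6.33 over all peaks. Within the locus it changed along the V segments. The stretches below were chosen after these values had been seen, so they are a description.

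From 22562919 to 22922195 lay 18 consecutive peaks with a level below the median of all peaks, where 49.8% of all peaks are below it. All 18 are below it because the stretch was picked as the longest such run in the locus. Their levels were 4.11 to 6.09 (median 4.88). The 20 peaks to their left, 22320441 to 22555346, had levels of 5.54 to 16.5 (median 9.89), and 1 of the 20 was below the median of all peaks. The ratio of the medians was 0.493, a log2 difference of -1.02. The change fell between the peak ending at 22555346, with a level of 11.8, and the peak starting at 22562919, with a level of 5.04.

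The level differed with fold in the whole list, with a median of 5.50 below a fold of 3, 6.67 from 3 to 6, 7.70 from 6 to 10 and 7.39 at 10 or more. Peaks were therefore also set against those of like fold, within 10%. In the low stretch all 18 peaks lay below the middle of their like-fold peaks and 12 lay below 75% of them, where 24.3% of all peaks do so. As the stretch was picked by level, these counts only describe it. Left of it 17 of the 20 lay above 75% of their like-fold peaks, where 25.4% of all peaks do so. Among peaks with a fold of at least 5, the 3 in the low stretch had levels of 5.00, 5.34 and 5.79, and the 6 to its left had levels from 8.49 to 15.1. Among peaks with a fold below 3, the 7 in the low stretch ran from 4.11 to 5.00. The 10 left of the stretch ran from 5.54 to 10.5. The low stretch was defined by levels below the median of all peaks, so both separations largely follow from that choice.

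The low stretch ended at the strongest peak, whose own level was 10.4, above all 42 other peaks of like fold. The second strongest peak had 9.19 and the peak at the start of DAD1 had 9.98. The 12 weak peaks between the 2 strongest ran from 4.96 to 7.46, from 37.0% to 84.0% on the like-fold scale. Of these, 8 were below the median of all peaks and 6 below the middle of their like-fold peaks. The first of them, right after the strongest peak, had a level of 4.98. Since fold is divided by this level, a given ChIP pileup yields a higher fold at a lower level. The median fold was 3.23 in the low stretch and 3.17 to its left. ChIP pileups were not compared, as the deposited pileup was unusable and none was worked out from fold and level. The fold of 9.05, the highest of the V segments, was measured at a level of 5.79, so its rank by fold is not a rank by ChIP signal. The number of copies of this DNA in LOUCY was not measured, and its part in the level was not tested.

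The run was picked as the longest in the locus, so its place among all runs is a description. Run length was counted in peaks, which lay closer together here than in the genome, and this was not allowed for. Of 9979 runs of 1 or more peaks below the median in the genome, 55 had 18 or more. Of these 55, 15 lay on chromosome 5, 13 on chromosome X, 12 on chromosome 6 and 4 on chromosome 16. The other 11 were on the remaining autosomes, with 2 on chromosome 14. The second on chromosome 14, also of 18 peaks, ran from 106360165 to 106546546 in 14q32.33, the band of the immunoglobulin heavy chain genes.

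**Figure D5:**
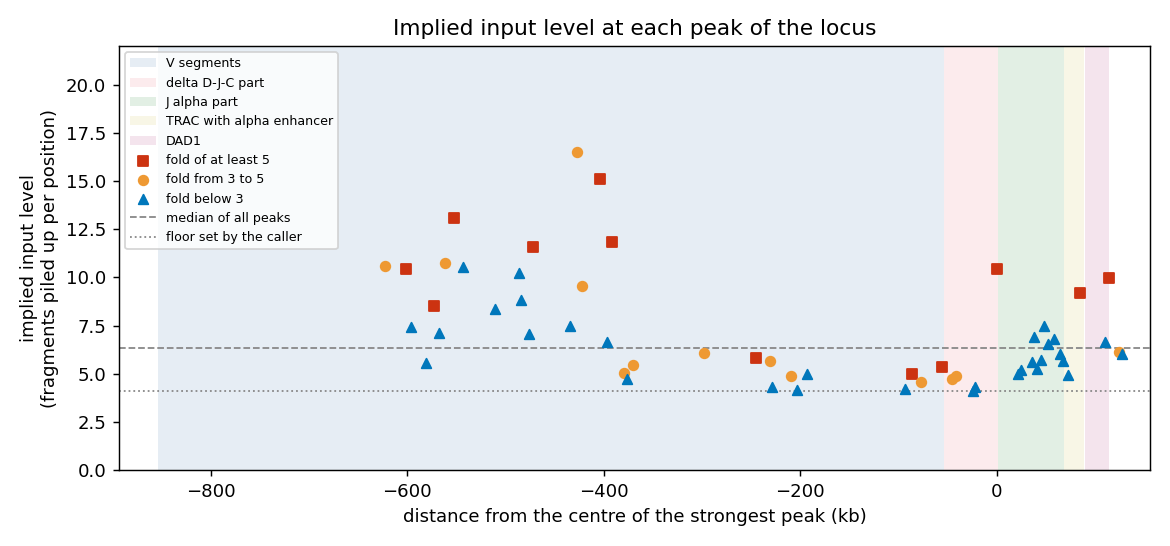
Implied input level at each of the 56 peaks against distance in kb from the centre of the strongest peak, marked by fold class, with the median of all peaks (6.33) dashed and the caller's floor (4.11) dotted; shading gives the segments. The 20 leftmost peaks have a median of 9.89, the next 18 run from 4.11 to 6.09, and the strongest peak is at 10.4.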

How the data were processed

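H3K27ac ChIP and input DNA of LOUCY were sequenced, 1 library each. Per the submitters' processing notes, Bowtie2, MACS2 and hg19 were used; no Bowtie2 setting is given in the sources used here. Per the file headers, the authors called broad peaks with MACS2 2.1.0.20140616, ChIP against input, with 1 tag kept per position, 84 bp tags, 204 bp fragments and the larger library scaled down. The header gives a q cutoff of 0.05, yet the lowest -log10 q listed was 1.01, so that cutoff was not the limit of the broad peaks. Keeping 1 tag per position limits how high a pileup can rise, and whether any peak here came near that limit was not tested. The deposited fold is a ratio of ChIP to local control. Each peak also has a deposited -log10 p-value and, adjusted by the caller, a -log10 q-value. The deposited width in bp was used too. The deposited pileup, unusable in all 52203 rows, was not used.

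Borders came from the position rule. Peaks were clipped at borders for covered bases and counted in each segment they overlap. Implied levels above 20 were set aside for medians. Level, clipping and joining were tested on simulated data. The simulated folds and p-values came from the same formula, with 1 level per peak. That test covers the calculation, and not how well the levels hold for broad peaks. Members, segments and named peaks were chosen with earlier results of these data known; named were the peaks with a fold of at least 6, those at borders, the highest and widest of each segment, and the longest gaps, and other peaks were named with their values in view. The planned marker check needs an hg19 annotation and was not run. Chromosome lengths came from circlize 0.4.16. Scripts ran in Python 3.11.15 (scipy 1.17.1, numpy 2.4.6, matplotlib 3.10.9, pandas 2.3.3).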

Additional observations from a re-analysis of the deposited data

How the results depend on the processing

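At a -log10 q of at least 5, at least 10 and a fold of at least 4, the locus had 21, 16 and 16 peaks in place of 56, a covered share of 14.2%, 13.4% and 13.1% in place of 18.4%, and a median fold of 5.52, 6.13 and 6.13 in place of 2.71, since weak peaks were removed. In the same order the V segments kept 16, 13 and 12 of 34 peaks and 10.1%, 9.63% and 8.90% covered. The delta D-J-C part kept 3, 2 and 3 of 6 peaks and 46.8%, 40.9% and 46.8% covered. The J alpha part kept 1 of 12 peaks and 24.7% covered each time, TRAC with the alpha enhancer 1 of 2 and 73.2%, and DAD1 2 of 3 and 30.7%. With a peak counted only where its midpoint lies, DAD1 had 1 peak.

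Moving the inner borders 5 kb to the left and to the right gave covered shares of 12.3% and 13.2% for the V segments, 46.9% and 38.0% for J alpha, 68.5% and 98.2% for TRAC with the alpha enhancer, and 50.3% and 25.5% for DAD1. The delta D-J-C part had 59.8% after the move to the right. The strongest peak ranked 4 by -log10 p, 75 by width and 5 by fold times width in place of 17. The window ranked 70 by covered bases and 71 by number of peaks in place of 26. The joined region ranked 27 with a 5 kb distance, 99 by summed width and 19 at a -log10 q of at least 10, in place of 10; the first and the last split it. The median input level was 8.49 at a fold of at least 3 and 8.0 with nothing added to pileup and control, in place of 6.11, and under the second setting the median of all peaks was 8.12. The ratio of 0.493 between the low stretch and the peaks to its left ran from 0.451 to 0.570 over 4 alternatives chosen after seeing the data. All kept a split made on level, so they do not test that split. No paired analysis was possible because each group had a single library. Neighbouring ranks have no replicate check.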

Other observations

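Outside the window the nearest peak on the left was at 22025554 to 22025878 (325 bp, fold 3.48, level 5.67). The nearest on the right was at 23181989 to 23182859 (871 bp, fold 4.33, level 6.88), 110.493 kb beyond the last peak of the locus, and 8.91% of the gaps of the genome were longer. The joined region of the right part of delta D-J-C, J alpha, TRAC and DAD1 was bounded by that gap on its right side.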
